A study of Mus musculus with 12 samples.

Results

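The genes examined here are 9 that move iron into, within and out of cells, measured in MIN6, an insulin-producing line derived from a mouse insulinoma that stands in for beta cells in culture. They were Tfrc, Slc11a2 and Steap3 (uptake), Fth1, Ftl1 and Ncoa4 (storage and its release), Slc40a1 (export), and Aco1 and Ireb2 (control). They were found by symbol in the platform annotation, and all 9 of 9 were measured among 19938 genes with a probe set of a single symbol. For Ncoa4, which has 2 such probe sets, the one with the higher mean signal over the 12 arrays was used.

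The series asked how gene expression differs when the repressor gene Hes3, a relative of the Notch targets Hes1 and Hes5, is targeted by siRNA under different culture conditions. RNA from 4 groups was hybridized to Affymetrix arrays. MIN6 cells in Defined Conditions (DC), which means medium without serum at 5% oxygen, carried Hes3 siRNA (4 arrays, numbered 1, 2, 5 and 7) or scrambled control siRNA (4 arrays). Cells in Classic Conditions (CC), which means medium with serum at 20% oxygen, carried Hes3 siRNA (2 arrays) or scrambled siRNA (2 arrays). All cells were first kept in serum medium, were transfected with siRNA at 2 µM, and were assayed 12 to 24 hours later. DC and CC differ in serum and in oxygen at once, so the parts of the 2 cannot be told apart. The labels describe duplicate or quadruplicate samples of a single experiment, and the p-values below therefore reflect only how these samples vary, which may be technical.

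Most cells take up iron by binding plasma transferrin to the transferrin receptor, encoded by Tfrc, and taking the complex into endosomes. There STEAP3 reduces the released iron and DMT1, encoded by Slc11a2, carries it into the cytosol. Surplus iron is kept in ferritin, a shell of heavy and light chains encoded by Fth1 and Ftl1, and NCOA4 delivers ferritin to lysosomes for breakdown. Ferroportin, encoded by Slc40a1, is the known cellular iron exporter of mammals. The iron regulatory proteins IRP1 (Aco1) and IRP2 (Ireb2) bind iron-responsive elements in mRNAs when iron is scarce, which stabilizes Tfrc mRNA and blocks translation of ferritin and ferroportin mRNAs. Part of this control therefore acts on translation and protein turnover, which arrays do not measure.

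Hes3 signal did not fall with the Hes3 siRNA label. Its mean log2 signal in DC was 7.34 ± 0.0609 in arrays labelled Hes3 siRNA and 7.19 ± 0.0640 in scrambled arrays (SD, n = 4 each; limma adjusted p = 0.114). In CC it was 7.22 ± 0.00521 with the Hes3 siRNA label and 7.02 ± 0.291 with scrambled siRNA (SD, n = 2 each; limma adjusted p = 1). These means lay below the array medians of 7.78 to 7.96, and at so low a signal a fall could go unseen. The values therefore do not decide whether Hes3 mRNA was reduced. Groups are named by their label, and nothing below is taken as a result of reduced Hes3 mRNA. All 10 beta cell markers on the list used were measured, with mean log2 signals of 13.8 for Iapp, 12.9 for Ins2, 11.6 for Pdx1 and 10.6 for Mafa. The lowest of the 10 were Slc2a2 (7.65) and Ucn3 (7.34), below the array medians. The alpha cell hormone gene Gcg (11.9) and the delta cell hormone gene Sst (11.5) also gave signal. The SD over all probe sets was narrower on DC arrays labelled Hes3 siRNA (1.76 to 1.80) than on DC scrambled arrays (1.82 to 1.85), CC arrays labelled Hes3 siRNA (1.86 to 1.88) and CC scrambled arrays (1.84 to 1.90).

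The comparisons gave different counts among the 9 genes. Between DC and CC with Hes3 siRNA, 4 of 9 were lower and 0 higher, against 18.8% of all genes lower and 21.2% higher. With scrambled siRNA, 2 of 9 were lower and 1 higher in DC than in CC, against 5.45% lower and 3.09% higher over all genes. These DC against CC comparisons share no arrays. Hes3 siRNA against scrambled siRNA in DC gave 2 lower and 0 higher, against 18.3% lower and 28.9% higher, so the count of lower genes was near the share over all genes. The siRNA labels in CC gave 0 calls among the 9 genes (0 of 9 with an unadjusted p under 0.05) and 0% over all genes, where 415 had an unadjusted p under 0.05. The difference of both siRNA contrasts, DC minus CC, also gave 0 calls in limma and 0% over all genes, with 2 of 9 members (Tfrc and Slc40a1) and 3471 of 19938 genes under 0.05 before adjustment. Each call is an adjusted p under 0.05 in 1 limma model of the 12 arrays.

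**Figure D1:**
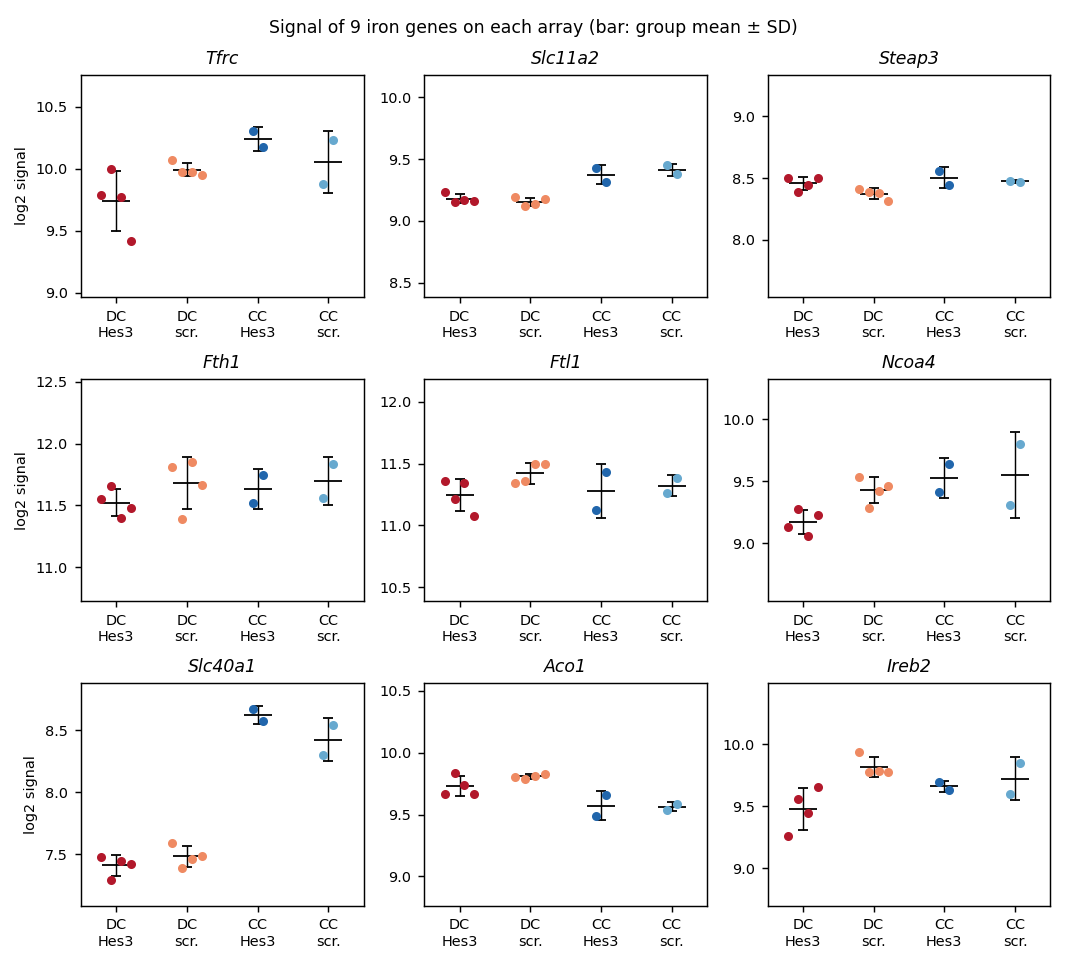
Log2 signal of the 9 genes on each of the 12 arrays, 1 panel per gene, with groups from left to right DC Hes3 siRNA, DC scrambled siRNA, CC Hes3 siRNA and CC scrambled siRNA. Points are arrays, and black bars are the group mean and SD. Slc40a1 is the panel in which the DC arrays (7.29 to 7.59) lie well below the CC arrays (8.30 to 8.68).

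The exporter gene Slc40a1 was lower in DC than in CC with either siRNA, by 2.32-fold with Hes3 siRNA and 1.92-fold with scrambled siRNA. In DC its log2 signals were 7.48, 7.29, 7.45 and 7.42 with Hes3 siRNA, and 7.59, 7.39, 7.46 and 7.49 with scrambled siRNA. In CC they were 8.68 and 8.57 with Hes3 siRNA, and 8.30 and 8.55 with scrambled siRNA. Every DC array was below every CC array, and within DC the arrays of both siRNA labels overlapped. The DC signals lay below the DC array medians (7.84 to 7.96) and the CC signals above the CC array medians (7.78 to 7.88). The part of this low signal in the size of the fold differences was not tested.

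On the log2 scale Slc40a1 differed between DC and CC by -1.22 ± 0.0857 with Hes3 siRNA (SE, 4 against 2 arrays; limma adjusted p = 3.75e-07). With scrambled siRNA it was -0.94 ± 0.0857 (SE; limma adjusted p = 5.73e-06). In the order of all 19938 genes from the most negative difference, Slc40a1 stood at place 61 with Hes3 siRNA and at place 53 with scrambled siRNA. By p-value it stood at places 13 and 32. It passed in all 16 alternative settings of the first comparison and all 15 of the second, with values from -1.36 to -1.16 and from -1.06 to -0.82. Hes3 siRNA minus scrambled siRNA gave -0.07 ± 0.0699 in DC (SE; limma adjusted p = 0.385) and 0.20 ± 0.0989 in CC (SE; limma adjusted p = 1). In CC the 2 arrays labelled Hes3 siRNA lay above the 2 scrambled arrays. The difference of these contrasts was -0.27 ± 0.121 (SE; limma adjusted p = 0.269).

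In a whole culture, fewer cells of a type and less RNA per cell cannot be told apart. Slc40a1 is also known for its expression in macrophages, so markers of that cell type were read beside it. Of 7 macrophage markers, 1 was lower and 1 higher in DC than in CC with Hes3 siRNA. These counts lie near the 18.8% lower and 21.2% higher over all genes. With scrambled siRNA 1 of the 7 was lower and 0 higher, beside 5.45% and 3.09%. The lower one was Cd68, a lysosomal glycoprotein gene that other cells also express, at -0.66 ± 0.0988 and -0.44 ± 0.0988 (SE; limma adjusted p = 0.000198 and 0.00919). The summed linear signal of the 7 markers was 1076 to 1172 in DC with Hes3 siRNA and 1316 to 1337 in CC with Hes3 siRNA. With scrambled siRNA the sums were 1028 to 1064 in DC and 1242 to 1244 in CC. Without Cd68 the sum of the other 6, which include Adgre1, Csf1r and Ptprc, was 582 to 659 in DC with Hes3 siRNA, 517 to 541 in DC with scrambled siRNA, 545 to 569 in CC with Hes3 siRNA and 524 to 554 in CC with scrambled siRNA. Cd68 was left out as the marker called lower, so the other 6 held no lower call by that choice. Their mean log2 signals, from 5.96 for Ptprc to 6.94 for Csf1r, were below the array medians of 7.78 to 7.96. No conclusion is therefore drawn from their sum, and the part of macrophages in the Slc40a1 result was not tested.

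Of 3 alpha cell markers measured, 2 were called lower in DC than in CC under both labels, the direction of Slc40a1. Over all genes 18.8% were lower with Hes3 siRNA and 5.45% with scrambled siRNA. Gcg and Ttr were lower in DC with Hes3 siRNA (-1.05 ± 0.116 and -0.69 ± 0.143 on the log2 scale, SE) and with scrambled siRNA (-0.93 ± 0.116 and -0.81 ± 0.143, SE). Irx2, a transcription factor gene, was called higher with Hes3 siRNA (0.28 ± 0.0794, SE; limma adjusted p = 0.0152), the opposite direction, and was at 0.01 ± 0.0794 with scrambled siRNA. The summed linear signal of the 3 was 7997 to 10139 in DC with Hes3 siRNA and 15122 to 15185 in CC with Hes3 siRNA, and 8460 to 9079 in DC with scrambled siRNA and 14939 to 16189 in CC with scrambled siRNA. Their part in the Slc40a1 result was not tested. Of 3 erythroid markers measured, 2 were higher in DC than in CC with Hes3 siRNA and 0 were called with scrambled siRNA. Of 4 endothelial markers 2 and 0 were higher. Over all genes 21.2% and 3.09% were higher. With Hes3 siRNA, 4 of 5 acinar, 3 of 5 delta, PP and epsilon, 2 of 7 fibroblast and 1 of 4 duct markers were higher too.

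Over the 12 arrays, the genes with the highest Pearson correlation to Slc40a1 were Sema6a (r = 0.989), Cd200 (0.988), Surf4 (0.986) and Ifi30 (0.986). The 12 points fall into 2 sets, DC and CC, which these genes also separate, so the values describe that division and carry no p. Sema6a encodes a semaphorin, Cd200 a cell surface glycoprotein, Surf4 a cargo receptor of the endoplasmic reticulum and Ifi30 a lysosomal thiol reductase. The DC minus CC differences with Hes3 siRNA were -0.70 for Sema6a, -1.17 for Cd200, -0.67 for Surf4 and -0.98 for Ifi30. With scrambled siRNA they were -0.55, -0.78, -0.51 and -0.69 in the same order.

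**Figure D2:**
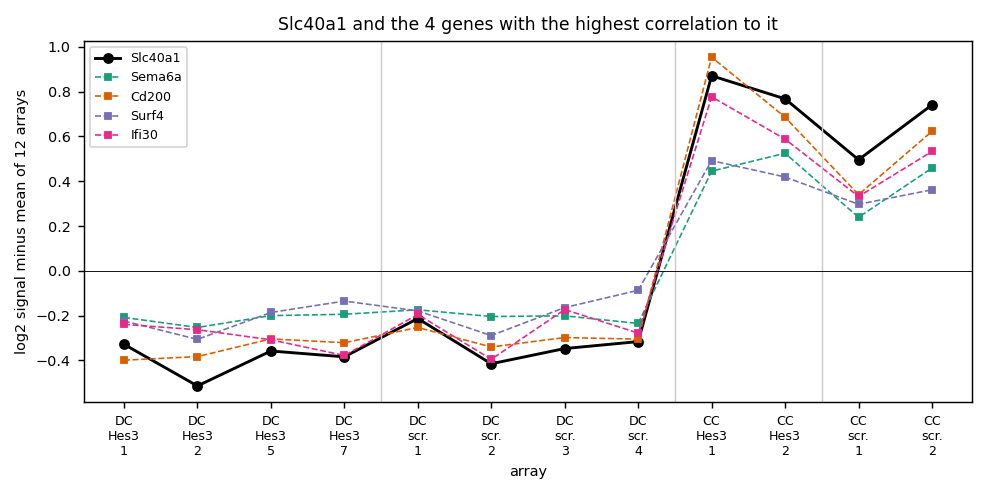
Log2 signal minus the mean of the 12 arrays (vertical axis) for Slc40a1 (black) and the 4 genes with the highest correlation to it, on each array (horizontal axis). All 5 genes are below 0 on the 8 DC arrays and above 0 on the 4 CC arrays. Lines join arrays only to guide the eye.

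Among the uptake genes, Tfrc was 1.41-fold lower in DC than in CC in the arrays labelled Hes3 siRNA. Its log2 signals were 9.79, 9.999, 9.77 and 9.42 in DC and 10.31 and 10.17 in CC with Hes3 siRNA, and array 7 was the lowest of the 12. With scrambled siRNA they were 10.07, 9.98, 9.98 and 9.95 in DC and 9.88 and 10.23 in CC. The Hes3 siRNA groups did not overlap, while the DC scrambled arrays lay between both CC scrambled arrays.

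For Tfrc the DC minus CC difference was -0.50 ± 0.126 with Hes3 siRNA (SE; limma adjusted p = 0.00814) and -0.06 ± 0.126 with scrambled siRNA (SE; limma adjusted p = 0.866). The difference between these values, which equals that of the siRNA contrasts, was -0.44 ± 0.179 and did not pass (SE; limma adjusted p = 0.249). It passed without CC scrambled array 2 (-0.61, limma adjusted p = 0.0495), a setting in which 1565 of all genes were called lower and 491 higher, against 0 with all arrays. The call with Hes3 siRNA was lost without CC Hes3 siRNA array 1 (-0.43, limma adjusted p = 0.0860) and under quantile normalization (-0.34, limma adjusted p = 0.0576). Hes3 siRNA against scrambled siRNA gave -0.25 ± 0.103 in DC, where the groups overlapped (SE; limma adjusted p = 0.0577). That value passed without DC Hes3 siRNA array 2 (-0.33, limma adjusted p = 0.0161). In CC the difference was 0.19 ± 0.146 (SE; limma adjusted p = 1).

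The genes most correlated with Tfrc over the 12 arrays were Lrrn1 (r = 0.940), Poc1b (0.937), Pip4k2c (0.935) and Ppif (0.926). Ppif encodes cyclophilin D of the mitochondrial permeability transition pore, and Pip4k2c a phosphoinositide kinase. They were chosen for that correlation on the same arrays, so their values are a description and carry no p. The DC minus CC differences with Hes3 siRNA were -0.44 for Lrrn1, -0.28 for Poc1b, -0.53 for Pip4k2c and -0.53 for Ppif. With scrambled siRNA they were -0.02, -0.12, -0.13 and -0.18 in the same order.

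Slc11a2, the gene of the endosomal transporter DMT1, was modestly lower in DC than in CC with both siRNA labels. Its log2 signals were 9.23, 9.16, 9.17 and 9.16 in DC and 9.43 and 9.32 in CC with Hes3 siRNA. With scrambled siRNA they were 9.19, 9.12, 9.14 and 9.18 in DC and 9.45 and 9.38 in CC. All 8 DC arrays lay below all 4 CC arrays.

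The DC minus CC difference of Slc11a2 was -0.20 ± 0.0663 with Hes3 siRNA (SE; limma adjusted p = 0.0310) and -0.26 ± 0.0663 with scrambled siRNA (SE; limma adjusted p = 0.0223). Both calls were fragile. The first passed in 7 of 16 alternatives and was lost without CC Hes3 siRNA array 1 (-0.14) or 2 (-0.25), or DC Hes3 siRNA array 2 (-0.19) or 5 (-0.19). The second passed in 8 of 15 and was lost without CC scrambled array 1 (-0.22) or 2 (-0.29), or DC scrambled array 2 (-0.24) or 3 (-0.25). Hes3 siRNA minus scrambled siRNA in DC was 0.02 ± 0.0542 (SE; limma adjusted p = 0.727).

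Steap3, the gene of the endosomal ferric reductase, had log2 signals of 8.39 to 8.50 in DC with Hes3 siRNA, 8.31 to 8.41 in DC with scrambled siRNA, 8.44 and 8.56 in CC with Hes3 siRNA, and 8.47 and 8.48 in CC with scrambled siRNA. None of its differences passed. They were -0.04 ± 0.0682 for DC minus CC with Hes3 siRNA, -0.10 ± 0.0682 with scrambled siRNA and 0.09 ± 0.0557 between siRNA labels in DC (SE; limma adjusted p from 0.204 to 0.613). The DC scrambled arrays lay below the CC scrambled arrays without overlap.

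**Figure D3:**
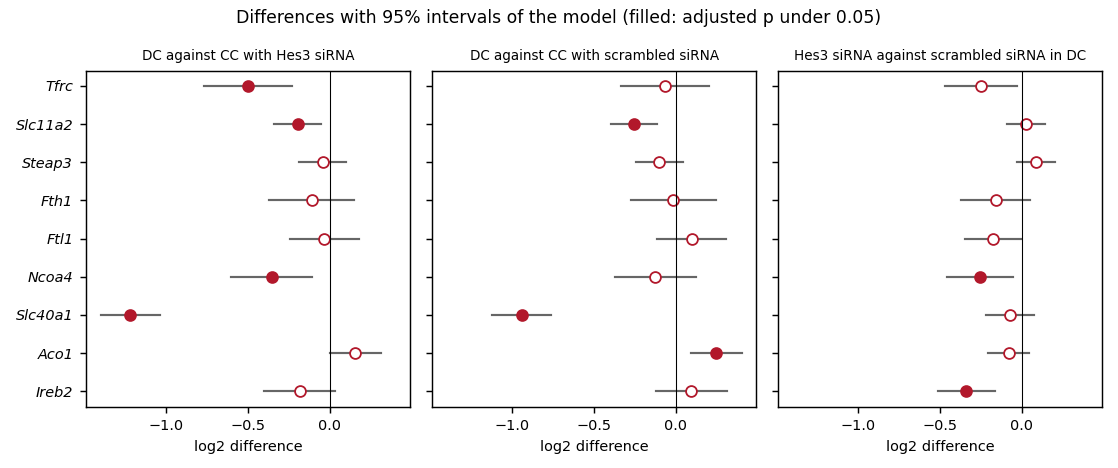
Log2 differences of the 9 genes (rows) in DC against CC with Hes3 siRNA, in DC against CC with scrambled siRNA, and in Hes3 siRNA against scrambled siRNA in DC, with 95% intervals of the limma model. Filled points have an adjusted p under 0.05. Slc40a1 lies near -1 in both DC against CC panels and near 0 between siRNA labels.

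The ferritin genes did not pass in any comparison of the limma model used for calls, though each passed in some alternatives. Fth1, the heavy chain that oxidizes iron, had log2 signals of 11.56, 11.66, 11.40 and 11.48 in DC with Hes3 siRNA and 11.81, 11.39, 11.85 and 11.67 in DC with scrambled siRNA. In CC they were 11.52 and 11.74 with Hes3 siRNA and 11.56 and 11.84 with scrambled siRNA, so all 4 groups overlapped. Hes3 siRNA minus scrambled siRNA in DC was -0.16 ± 0.0991 (SE; limma adjusted p = 0.184). Without DC scrambled array 2, the lowest of its group, this value was -0.26 and passed (limma adjusted p = 0.0326). The DC minus CC differences were -0.11 ± 0.121 with Hes3 siRNA and -0.01 ± 0.121 with scrambled siRNA (SE; limma adjusted p = 0.458 and 0.970), and the sign of both turned under quantile and cyclic loess normalization.

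Ftl1, the light chain that helps the shell hold a mineral core, had log2 signals of 11.36, 11.21, 11.34 and 11.08 in DC with Hes3 siRNA and 11.34, 11.36, 11.50 and 11.49 in DC with scrambled siRNA. In CC they were 11.12 and 11.43 with Hes3 siRNA and 11.26 and 11.38 with scrambled siRNA. Hes3 siRNA minus scrambled siRNA in DC was -0.17 ± 0.0809 (SE; limma adjusted p = 0.0844), where 2 scrambled arrays lay inside the range of the arrays labelled Hes3 siRNA. It passed with arrays centred on their median (-0.25, limma adjusted p = 0.0366) and with array weights (-0.22, limma adjusted p = 0.0343). The DC minus CC differences were -0.03 ± 0.0991 with Hes3 siRNA and 0.10 ± 0.0991 with scrambled siRNA (SE; limma adjusted p = 0.797 and 0.678). The first turned positive under quantile and cyclic loess normalization. Ftl1 has near-identical copies, and 4 further probe sets carry its symbol together with others. Of these, 3 followed the probe set used (r = 0.946 to 0.967 over the 12 arrays) and 1 did so less (r = 0.463), so the ferritin values are uncertain as to the copy measured. DC minus CC with Hes3 siRNA, all 4 were positive (0.03 to 0.11), the opposite sign to the probe set used. Between siRNA labels in DC, the 3 gave -0.13 to -0.12 and the 1 gave 0.03.

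Ncoa4, the receptor that carries ferritin to lysosomes, was lower in the DC arrays labelled Hes3 siRNA than in either group set against them. Its log2 signals there were 9.13, 9.27, 9.06 and 9.23. They were 9.54, 9.29, 9.42 and 9.46 in DC with scrambled siRNA, 9.41 and 9.64 in CC with Hes3 siRNA, and 9.31 and 9.80 in CC with scrambled siRNA. The 4 DC arrays labelled Hes3 siRNA were the 4 lowest of the 12.

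The difference of Ncoa4 between siRNA labels in DC was -0.25 ± 0.0953 (SE; limma adjusted p = 0.0393), and DC minus CC with Hes3 siRNA it was -0.35 ± 0.117 (SE; limma adjusted p = 0.0282). These contrasts share the DC arrays labelled Hes3 siRNA. A second probe set of Ncoa4 gave -0.22 and -0.32 (r = 0.988 between the 2). With scrambled siRNA the DC minus CC difference was -0.12 ± 0.117 (SE; limma adjusted p = 0.651), which passed without CC scrambled array 1 (-0.37, limma adjusted p = 0.0483). The call between siRNA labels passed in 9 of 18 alternatives. It was lost without DC Hes3 siRNA array 1 (-0.24) or 5 (-0.22), without DC scrambled array 1 (-0.22), 3 (-0.26) or 4 (-0.24), and under quantile and cyclic loess normalization. DC minus CC with Hes3 siRNA passed in 9 of 16 and was lost without CC Hes3 siRNA array 2 (-0.24), without DC Hes3 siRNA array 1 (-0.34) or 5 (-0.32), and under the same normalizations. The genes most correlated with Ncoa4 over the 12 arrays were Htatsf1 (r = 0.978), Sf3b6 (0.975), Brix1 (0.974) and Churc1 (0.972).

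ACGTG, a form of the core letters of hypoxia response elements, was searched since DC has less oxygen than CC. The search covered both strands from 250 bases before to 50 bases after annotated starts in RefSeq's mouse annotation (GRCm38.p6). The other form of the core, GCGTG, was not searched. Of 7 members with a promoter entry, 2 held the letters (Tfrc and Ncoa4), as did 21.8% of 27025 genes and 19.6% of 32851 windows. Slc40a1 and Slc11a2 had no promoter entry and were not searched. Aco1, Ireb2, Ftl1, Fth1 and Steap3 held no match to ACGTG in these windows. All 3 sites of these genes found by the search are shown. A match is a description and not a binding site. Capitals mark the letters searched, and each sequence reads 5′ to 3′ on the strand of the match. The first capital in a position means the first in the direction of the gene. For a match on the strand opposite the gene, that is the last capital printed.
Tfrc, chr16:32608884-32608908, plus strand, first capital at -2 from the start: cggtaggtgtACGTGcggaaggaag
Ncoa4, chr14:32159806-32159830, minus strand, first capital at -71: ttagagctcaACGTGgaggcatgca
Ncoa4, chr14:32165711-32165735, plus strand, first capital at -68: ggggagggagACGTGacgcgcgcaa

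Of the genes for the iron regulatory proteins, Ireb2 (IRP2) was 1.26-fold lower with Hes3 siRNA than with scrambled siRNA in DC. Its log2 signals in DC were 9.26, 9.56, 9.45 and 9.65 with Hes3 siRNA, against 9.94, 9.77, 9.79 and 9.78 with scrambled siRNA, without overlap. In CC they were 9.70 and 9.63 with Hes3 siRNA and 9.60 and 9.85 with scrambled siRNA. The spread was wider among DC arrays labelled Hes3 siRNA (SD 0.171, n = 4) than among DC scrambled arrays (SD 0.0785, n = 4).

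The difference of Ireb2 between siRNA labels in DC was -0.34 ± 0.0828 (SE; limma adjusted p = 0.00720) and passed in 16 of 18 alternatives. The 2 losses were without DC Hes3 siRNA arrays 1 and 5 together (-0.21, limma adjusted p = 0.115) and in the fit with the replicate number as a term. In that fit the DC contrast rested on arrays 1 and 2 of each label. DC minus CC, the difference of Ireb2 was -0.18 ± 0.101 with Hes3 siRNA and 0.10 ± 0.101 with scrambled siRNA (SE; limma adjusted p = 0.149 and 0.701). The difference of the siRNA contrasts was -0.28 ± 0.143 (SE; limma adjusted p = 0.320), so the lower Ireb2 value in DC was not shown to differ from that in CC.

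Aco1 (IRP1, which acts as cytosolic aconitase when it holds an iron-sulfur cluster) had higher means in DC than in CC under both siRNA labels. Its log2 signals were 9.664, 9.838, 9.743 and 9.668 in DC and 9.490 and 9.655 in CC with Hes3 siRNA. With scrambled siRNA they were 9.81, 9.79, 9.82 and 9.83 in DC and 9.54 and 9.59 in CC. Neither pair of groups overlapped.

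Aco1 differed between DC and CC by 0.25 ± 0.0733 with scrambled siRNA, 1.19-fold higher (SE; limma adjusted p = 0.0487). With Hes3 siRNA it was 0.16 ± 0.0733 (SE; limma adjusted p = 0.0958), a value that passed under quantile normalization (0.28), cyclic loess (0.27) and array weights (0.18; limma adjusted p = 0.00799, 0.00615 and 0.0352). The scrambled call stood at the threshold and was lost without any 1 of the 6 arrays compared, with values from 0.22 to 0.27. Hes3 siRNA minus scrambled siRNA in DC was -0.08 ± 0.0598 (SE; limma adjusted p = 0.261).

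As a group in DC, 7 of 9 genes had lower means with Hes3 siRNA than with scrambled siRNA, with a median log2 difference of -0.16, while all genes had a median of 0.06. This median of all genes moved with signal level. Over the 11963 genes at or above the 40th percentile of mean signal it was -0.07. The narrower spread of signals on the DC arrays labelled Hes3 siRNA moved with this comparison, and its part in the members' values was not tested. DC against CC, the median of the 9 genes was -0.18 with Hes3 siRNA (all genes 0.09) and -0.06 with scrambled siRNA (all genes 0.02). In CC the 7 members other than Slc40a1 and Tfrc differed by -0.06 to 0.03 between siRNA labels, and each of the 7 turned sign in at least 1 alternative. In the difference of the siRNA contrasts, the 5 members other than Tfrc, Slc40a1, Ireb2 and Ncoa4 lay between -0.13 and 0.06 (limma adjusted p from 0.594 to 0.757), and Ncoa4 was at -0.23 ± 0.165 (SE; limma adjusted p = 0.446).

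A wider list of 71 iron-related genes, of which 66 were measured, held other members of the pathway. DC against CC, 20 of the 66 were lower and 9 higher with Hes3 siRNA (median log2 difference -0.05), and 9 were lower and 2 higher with scrambled siRNA (median -0.02). Hes3 siRNA against scrambled siRNA in DC gave 13 lower and 12 higher (median 0.00), and the other 2 comparisons gave 0 calls. With Hes3 siRNA these are 30.3% lower and 13.6% higher, beside 18.8% and 21.2% of all genes. With scrambled siRNA they are 13.6% lower and 3.03% higher, beside 5.45% and 3.09%. Between siRNA labels in DC they are 19.7% lower and 18.2% higher, beside 18.3% and 28.9%, so the share lower was near that of all genes and the share higher was below it.

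**Figure D4:**
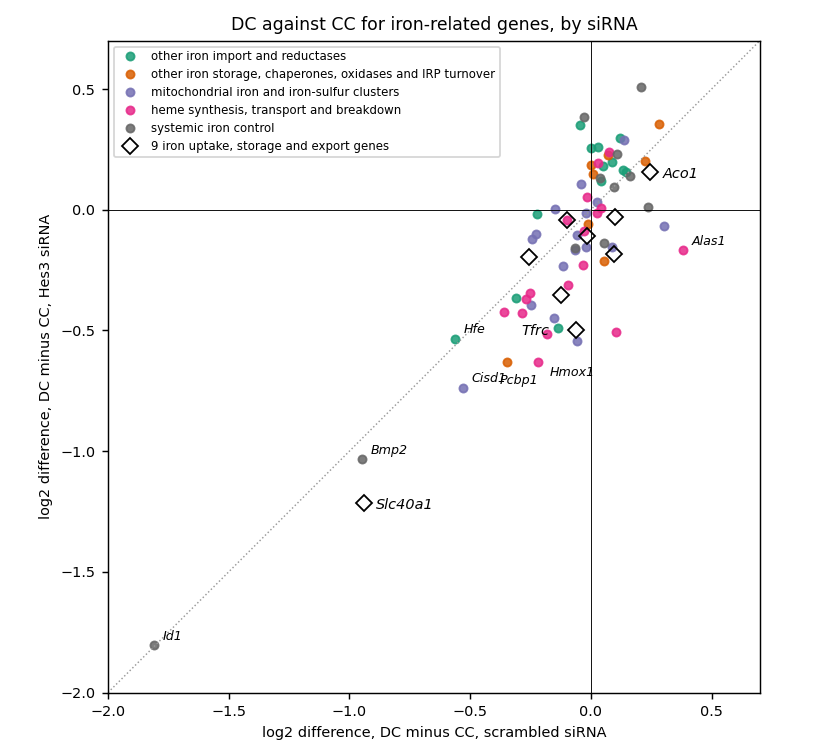
Log2 difference DC minus CC with scrambled siRNA (horizontal axis) and with Hes3 siRNA (vertical axis) for the 66 other iron-related genes, coloured by list, and the 9 iron genes (open diamonds). The 2 axes share no arrays, and the dotted line marks equal differences. Id1, Bmp2 and Slc40a1 lie farthest below 0 on both axes, and Alas1 lies farthest to the right.

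Counts in the lists that follow stand beside the same shares of all genes, which are 18.8% lower and 21.2% higher in DC against CC with Hes3 siRNA, and 5.45% lower and 3.09% higher with scrambled siRNA. The list of systemic iron control, like the others, was chosen with earlier results of these data known. Its median log2 difference was 0.09 with Hes3 siRNA and 0.06 with scrambled siRNA, beside 0.09 and 0.02 for all genes. Its largest differences were those of Id1 and Bmp2. Id1, a transcriptional inhibitor and a known target of BMP signalling, differed by -1.81 ± 0.0968 in DC against CC with Hes3 siRNA and by -1.81 ± 0.0968 with scrambled siRNA (SE; limma adjusted p = 4.28e-08 and 4.07e-08). Bmp2, a BMP ligand that in liver raises hepcidin, differed by -1.03 ± 0.127 and -0.95 ± 0.127 (SE; limma adjusted p = 3.44e-05 and 0.000186). Both passed in every alternative run for them. Of the 11 genes of this list, 2 were lower and 2 higher with Hes3 siRNA, and 2 were lower and 0 higher with scrambled siRNA. The higher ones were Tmprss6, a hepcidin-suppressing protease (0.39 ± 0.102), and Hamp2, a hepcidin gene (0.51 ± 0.136; SE for both), and each lost its call without either CC Hes3 siRNA array, at 0.36 and 0.41 for Tmprss6 and 0.51 in both cases for Hamp2.

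Among 13 other genes of import and reductases, 3 were lower and 3 higher in DC than in CC with Hes3 siRNA, and 2 were lower and 0 higher with scrambled siRNA. Hfe, whose product binds transferrin receptors, was lower under both labels, by -0.53 ± 0.0808 and -0.56 ± 0.0808 (SE; limma adjusted p = 0.000208 and 0.000348), and passed in every alternative of both. Trf, the transferrin gene, was higher with Hes3 siRNA (0.35 ± 0.0752, SE; limma adjusted p = 0.00290) and at -0.05 ± 0.0752 with scrambled siRNA (SE; limma adjusted p = 0.824). The zinc and iron importer gene Slc39a14 was lower with Hes3 siRNA (-0.37 ± 0.0831, SE; limma adjusted p = 0.00422), a call lost without CC Hes3 siRNA array 1 (-0.27). It was also lower with scrambled siRNA (-0.31 ± 0.0831, SE; limma adjusted p = 0.0272), which passed in 8 of 15 alternatives.

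Of 17 heme genes, 9 were lower and 1 higher in DC than in CC with Hes3 siRNA. Hmox1, the heme-degrading oxygenase, differed by -0.63 ± 0.131 (SE; limma adjusted p = 0.00246), and without CC Hes3 siRNA array 2 the call was lost at -0.43. Cpox (-0.43 ± 0.0846) and Abcg2 (-0.37 ± 0.0685), a heme synthesis enzyme and an exporter of porphyrins, passed in every alternative run for them (SE; limma adjusted p = 0.00169 and 0.00107). Fech, which inserts iron into protoporphyrin, was at -0.52 ± 0.107 (SE; limma adjusted p = 0.00237), and its call was lost without CC Hes3 siRNA array 2 (-0.40). With scrambled siRNA 3 of 17 were lower and 1 higher. The higher one was Alas1, the first enzyme of heme synthesis (0.38 ± 0.0866, SE; limma adjusted p = 0.0104), which lost its call without CC scrambled array 1 (0.20).

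In mitochondrial iron and iron-sulfur cluster assembly, 4 of 17 genes were lower and 1 higher in DC than in CC with Hes3 siRNA, and 1 of 17 was lower with scrambled siRNA. Cisd1, an iron-sulfur protein of the outer mitochondrial membrane, was lower under both labels, at -0.74 ± 0.114 and -0.53 ± 0.114 (SE; limma adjusted p = 0.000239 and 0.00707), and the second call was lost without CC scrambled array 2 (-0.39). Isca1, a cluster assembly factor, was lower with Hes3 siRNA (-0.54 ± 0.112, SE; limma adjusted p = 0.00224). Among 8 genes of storage, chaperones, oxidases and IRP turnover, 2 were lower and 2 higher with Hes3 siRNA and 1 was lower and 1 higher with scrambled siRNA. Pcbp1, an RNA-binding protein that also delivers iron to ferritin, was lower under both labels, at -0.63 ± 0.0974 and -0.35 ± 0.0974 (SE; limma adjusted p = 0.000237 and 0.0359). The scrambled value passed in 7 of 15 alternatives and was -0.17 without CC scrambled array 2.

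Between siRNA labels in DC, 18.3% of all genes were lower and 28.9% higher. Heme genes counted 5 lower and 1 higher of 17, and import genes 1 lower and 6 higher of 13. In DC scrambled arrays the 6 import genes had mean log2 signals from 7.04 (Tfr2) to 8.03 (Meltf). The 5 heme genes had means from 9.20 (Fech) to 10.51 (Ppox). With genes below the 40th percentile of signal left out, 5 of 48 other iron genes were higher and 13 lower, against 12 and 13 of 66. The part of signal level in the heme and import counts was not tested. The lower heme genes included Alas1 (-0.43 ± 0.0707), Hmox2 (-0.41 ± 0.0960), the constitutive heme oxygenase, and Fech (-0.33 ± 0.0873; SE for each; limma adjusted p = 0.00240, 0.00630 and 0.00920). The higher import genes included Scara5, a ferritin receptor (0.38 ± 0.0627), and Meltf, melanotransferrin (0.32 ± 0.0698; SE for both; limma adjusted p = 0.00247 and 0.00498). Mitochondrial genes counted 4 lower and 1 higher of 17, with Isca1 at -0.38 ± 0.0913 (SE; limma adjusted p = 0.00676). Storage genes counted 2 lower and 1 higher of 8, and systemic control genes 1 lower and 3 higher of 11, with Tmprss6 at 0.42 ± 0.0831 (SE; limma adjusted p = 0.00361). In the same comparison markers of other cell types were also called higher, beside the same 28.9% of all genes: 5 of 5 acinar, 5 of 7 fibroblast, 5 of 7 macrophage, 3 of 4 duct, 2 of 4 endothelial, 3 of 3 erythroid, 3 of 5 delta, PP and epsilon and 1 of 3 alpha cell markers measured. With so few markers a list, counts such as 1 of 3 and 2 of 4 lie near that share. Many of these markers gave low signal, with mean log2 signals such as 6.92 for Prss2, 6.95 for Cel and 6.98 for Klf1. Others were brighter, such as Sst (11.5), and DC array medians were 7.84 to 7.96. With genes below the 40th percentile of signal left out, 2071 of 11963 genes were higher and 3365 lower. The part of signal level in the marker counts was not tested. Of the 10 beta cell markers, 2 were higher and 4 lower. The summed linear signal of the acinar markers was 979 to 1103 with Hes3 siRNA and 815 to 899 with scrambled siRNA, and that of the erythroid markers 646 to 786 with Hes3 siRNA and 552 to 593 with scrambled siRNA. Their part in these counts was not tested. Without DC Hes3 siRNA arrays 1 and 5, 2 of the 66 other iron genes passed between siRNA labels in DC, and without any 1 array the count ran from 14 to 33.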

How the data were processed

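RNA of 12 MIN6 samples was measured on Affymetrix arrays, from 250 ng of total RNA each, per the labels' protocols. The authors deposited log2 values for 35556 probe sets, 1 per array. The log2 unit is read from their range (3.94 to 14.4), since no label states it. The steps by which the authors summarized, background-corrected and normalized the arrays are not given in the sources used here. All 12 columns were used. The platform annotation gave 21789 probe sets 1 symbol, 1621 several and 12146 none. For 999 genes with several single-symbol probe sets the one with the highest mean was kept, and 19938 genes resulted, dim ones included. Entrez identifiers of 21698 probe sets matched the reference table, with 0 symbols changed.

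Differences were fitted with limma 3.58.1 in R 4.3.3 as 4 group means on all 12 arrays (8 residual and 7.62 prior degrees of freedom). P-values are two-sided and adjusted by the Benjamini-Hochberg method over the 19938 genes of each contrast, with a threshold of 0.05. The fit was tested on simulated data. Means carry their SD and differences their SE. The number of arrays limits the precision, and the labels give no batch or date.

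The members and the lists were chosen with earlier results of these data known. The rule for named genes took the 9 members in every comparison, Hes3 once, up to 4 genes past the threshold per list (smallest p first), and, for the 3 members whose group means ranged widest, the 4 genes with the highest correlation. The text prints part of these. Marker lists cover beta, alpha, delta, acinar, duct, fibroblast, macrophage, endothelial and erythroid cells. Alternatives were quantile, cyclic loess and median scaling, dropping genes below the 40th percentile of signal, trend and robust eBayes, fits restricted to the compared arrays, averaged probe sets, array weights, a replicate block, leaving out DC Hes3 siRNA arrays 1 and 5, and leaving out each array. Promoter sequences were RefSeq's.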

Additional observations from a re-analysis of the deposited data

Results flagged for a closer look

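Within the 2 groups of 4 arrays, 18 sets of values of the 9 genes were checked for a single array far from the other 3, and 2 met the limit of Dixon's test, which chance meets in about 1 in 20 such sets. Slc11a2 was highest on array 1 of the DC group labelled Hes3 siRNA, with a log2 signal of 9.231 against 9.156 to 9.169 on the others. Ireb2 was highest on array 1 of the DC scrambled group, at 9.937 against 9.774 to 9.789. Without that array the difference of Ireb2 between siRNA labels in DC still passed.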

How the results depend on the processing

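The DC minus CC difference of Slc40a1 kept its direction and its call in every alternative run. Counts of calls among the 9 genes moved. Between siRNA labels in DC, 2 genes passed, against 1 under quantile normalization, 1 under cyclic loess, 4 with arrays centred on their median, 0 with the replicate block, 0 without DC Hes3 siRNA arrays 1 and 5, and 1 to 3 without single arrays. DC against CC with Hes3 siRNA the count was 4, against 2 under quantile normalization (1 higher), 1 with the replicate block, 2 without arrays 1 and 5, and 2 to 4 without single arrays. With scrambled siRNA it was 3, against 1 with array weights, 1 with the replicate block and 1 to 2 without single arrays. For the difference of the siRNA contrasts it was 0, and 0 to 1 without single arrays. The numbers are not taken to pair the samples: deviations of same-numbered arrays correlated from -0.44 to 0.54 over 12 pairs, and 4 of the 12, in 2 of the pairings of groups, were over 0.1. In the replicate block fit, numbers 3, 4, 5 and 7 occur on 1 array each, so those arrays drop out of the contrasts. The DC groups then rest on arrays 1 and 2 alone, so this fit also uses fewer arrays. With the replicate block Ireb2 lost its call between siRNA labels in DC (-0.445, limma adjusted p = 0.0610). Signs turned for values that did not pass. Between siRNA labels in DC these were Slc11a2 (-0.049 with centred arrays), Fth1 (0.004 with the replicate block) and Aco1 (0.044 under quantile and 0.030 under cyclic loess normalization). DC against CC with Hes3 siRNA, Fth1 was 0.072 under quantile and 0.092 under cyclic loess normalization, and Ftl1 was 0.187, 0.165 and, with the replicate block, 0.007. Without single arrays Steap3 ran from -0.102 to 0.017, Fth1 from -0.221 to 0.002 and Ftl1 from -0.187 to 0.124. With scrambled siRNA, Fth1 was 0.020 under quantile normalization, 0.014 under cyclic loess and 0.012 with array weights. Without single arrays Fth1 ran from -0.153 to 0.123, Tfrc from -0.241 to 0.115, Ncoa4 from -0.370 to 0.121 and Ireb2 from -0.027 to 0.218. In the difference of the siRNA contrasts Ncoa4 ran from -0.474 to 0.018. Of 50 results named from the wider lists, with 818 alternative values, 648 stayed on their side of the threshold, 169 lost the call and 1 turned sign (Pcbp2, DC against CC with Hes3 siRNA, 0.001 under cyclic loess). The causes were not tested. Centring moved the median of all genes DC against CC with Hes3 siRNA to -0.02, against 0.09 as deposited, and the split of calls to 1034 higher and 4950 lower, against 4231 and 3755. It was 2045 and 2980 under quantile normalization and 1873 and 3258 under cyclic loess. Between siRNA labels in DC the split was 2906 higher and 5022 lower with centred arrays and 1694 and 2603 under cyclic loess, against 5769 and 3639. Calls among the 66 other iron genes between siRNA labels in DC numbered 25, against 13 under quantile normalization, 12 under cyclic loess and 0 with the replicate block. With scrambled siRNA DC against CC they numbered 11, against 7 in the fit of only the arrays compared, 5 with array weights and 4 with the replicate block.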
